A study of Mus musculus with 30 samples.

Results

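The 4 pyruvate dehydrogenase kinases (Pdk1, Pdk2, Pdk3 and Pdk4), the 2 catalytic phosphatases that oppose them (Pdp1 and Pdp2) and the phosphatase regulatory subunit Pdpr were followed in AML12 cells. These 7 genes were taken by symbol from the 49089 genes in the deposited counts, and all 7 passed the filter on low counts that left 11368 genes for testing. AML12 is a mouse hepatocyte line. The cells were transiently transfected with siRNA, so every group had been through transfection. Control cells received a non-silencing siRNA, FoxK1 KD cells an siRNA against Foxk1, FoxK2 KD cells an siRNA against Foxk2, and DKD cells both. All cells were serum-starved overnight and then left without insulin (basal) or given 100 nM insulin for 6 h. Basal samples carry a time of 0 in the labels, whereas the study's text describes a mock treatment. The 8 groups held 4 samples each, except insulin-treated Control and DKD cells with 3 each, 30 samples in all. The study describes n in general as animals or separate experiments, but nothing ties these libraries to separate transfections, so the p-values measure the spread between samples of a group, which may be technical.

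The pyruvate dehydrogenase complex turns pyruvate from glycolysis into acetyl-CoA inside mitochondria. The kinases phosphorylate the E1 alpha subunit and switch the complex off, which leaves more pyruvate for lactate, alanine or oxaloacetate. The phosphatases remove the phosphate and switch it on again, and the regulatory subunit Pdpr lowers the sensitivity of the phosphatase to magnesium. The kinases differ in use: Pdk1 is a known target of hypoxia-inducible factor, Pdk2 is the broadly expressed form of liver, and Pdk4 is a fasting gene known to be induced by FoxO and PPAR factors and lowered by insulin. FoxK1 and FoxK2 are forkhead proteins described as drivers of aerobic glycolysis, and the comparisons ask whether these switch genes depend on them and on insulin.

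RefSeq start-site windows of GRCm38.p6 (250 bases before to 50 bases after the start) were at hand for 6 of the 7 genes, in 8 windows because Pdk1 and Pdk2 had 2 each. The bases before the start of Pdk1 and of the first Pdk2 window are shown because these kinases moved in opposite directions in the data. Each reads 5′ to 3′ on the gene's own strand, and capitals mark CACGTG, the E-box motif.
Pdk1, chr2:71872974-71873223, plus strand: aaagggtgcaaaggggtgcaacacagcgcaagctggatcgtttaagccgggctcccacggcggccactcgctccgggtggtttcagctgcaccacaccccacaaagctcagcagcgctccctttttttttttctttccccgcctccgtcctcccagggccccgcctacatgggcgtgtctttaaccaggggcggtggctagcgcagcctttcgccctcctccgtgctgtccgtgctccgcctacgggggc
Pdk2, chr11:95041372-95041621, minus strand: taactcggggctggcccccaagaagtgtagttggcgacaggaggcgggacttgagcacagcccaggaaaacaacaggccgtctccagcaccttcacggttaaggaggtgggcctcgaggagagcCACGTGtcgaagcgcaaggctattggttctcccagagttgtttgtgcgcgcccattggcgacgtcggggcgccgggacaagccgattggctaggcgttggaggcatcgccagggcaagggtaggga
The E-box also stood in Pdp2 and Pdpr, shown with 20 bases on each side.
Pdp2, chr8:104591233-104591278, plus strand: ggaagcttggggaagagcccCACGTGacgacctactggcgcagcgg
Pdpr, chr8:111094553-111094598, plus strand: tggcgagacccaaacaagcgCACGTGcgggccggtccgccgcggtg
The E-box began 126 bases before the start in Pdk2, 219 in Pdp2 and 172 in Pdpr, against 7.15% of 32851 mouse windows of the same length that held it. Its inner ACGTG, found in 19.6% of windows, also occurred in Pdk3, 53 bases before the start. The forkhead motifs TGTTTAC and TGTTTTG were searched on both strands. Neither was in any of the 8 windows, against 3.65% and 6.28% of all windows. These are matches of letters, not measured binding.

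Totals ran from 2141460 to 5668270 counts per sample. Levels are given as CPM, the counts of a gene scaled to equal library sizes after TMM normalization, and as CPM per kilobase of exon where genes are set against each other. At basal, Foxk1 was at 81.4 ± 10.4 CPM (SD, n = 4) with control siRNA, 36.8 ± 6.4 with FoxK1 siRNA and 46.5 ± 3.4 with both siRNAs. Foxk2 was at 140.2 ± 8.2 CPM with control siRNA, 47.3 ± 3.5 with FoxK2 siRNA and 50.2 ± 5.7 with both. Foxk2 was also lower in basal FoxK1 KD cells (edgeR, -0.26 log2, adjusted p = 0.0487). Insulin itself lowered Foxk1 in Control cells (edgeR, -0.62 log2, adjusted p = 0.00037). After insulin Foxk1 was at 53.0 ± 4.5 CPM in Control (n = 3), 30.9 ± 3.1 in FoxK1 KD (n = 4) and 34.2 ± 5.8 in DKD cells (n = 3). Foxk2 was then at 162.7 ± 5.7 in Control, 65.7 ± 3.5 in FoxK2 KD and 64.3 ± 4.6 in DKD cells. Basal Control replicate 1 stood apart from the other Control replicates on the principal components of the 16 basal samples. On PC2 it was at -40.8 against -7.6 to -5.0. On PC1, the larger component (26% of the variance), it was at -19.9, within the range of the basal DKD samples (-26.3 to -16.4). All remaining basal samples, the other Control replicates among them, lay at 0.1 to 24.7 on PC1. Why this Control library lay with the DKD samples there was not tested. Of the hepatocyte markers, Hnf4a (116 CPM in basal Control), Apob (568) and Krt8 (554) were present. Albumin (Alb, 9.16) was low and Apoa1 (0.53) was near absent. Krt19 (560) and Sox9 (257), which mark bile duct cells, were present without Epcam (0). Of the mesenchymal markers Vim was at 901, while Col1a2, Pdgfra and Acta2 were at 0. The summed hepatocyte markers ranged from 2136 to 2953 CPM over the 30 samples, the bile duct markers from 511 to 1049 and the immune markers from 0.46 to 4.43, and their part in the results below was not tested. In basal DKD cells the hepatocyte sum (2762 to 2840 CPM) lay above that of Control (2136 to 2685), and in basal FoxK1 KD cells the bile duct sum (511 to 582) lay under that of Control (623 to 1049). The largest parts of the hepatocyte sum were Krt18 (mean 1388 CPM in basal DKD against 1196 in Control) and Krt8 (741 against 554). By their means Hnf4a, Serpina1a, Afp and Trf were also higher in basal DKD cells. Apob (446 against 568), Alb, Ttr and Apoa1 were lower, so the markers did not move together. In bulk RNA, fewer cells of a kind and less RNA per cell cannot be told apart.

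In basal Control cells the kinase with the highest level per kilobase was Pdk2 (13.5 ± 0.55 CPM per kb, SD, n = 4), followed by Pdk1 (10.1 ± 0.51), Pdk3 (7.51 ± 1.14) and Pdk4 (0.73 ± 0.30). Of the opposing genes, Pdp2 stood at 12.1 ± 0.39 CPM per kb, Pdpr at 8.19 ± 1.79 and Pdp1 at 3.04 ± 0.23. Pdp2 was thus the main catalytic phosphatase at the mRNA level, and Pdk4, a gene prominent in fasted liver, was close to the detection limit with 3 to 24 counts per sample.

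**Figure D1:**
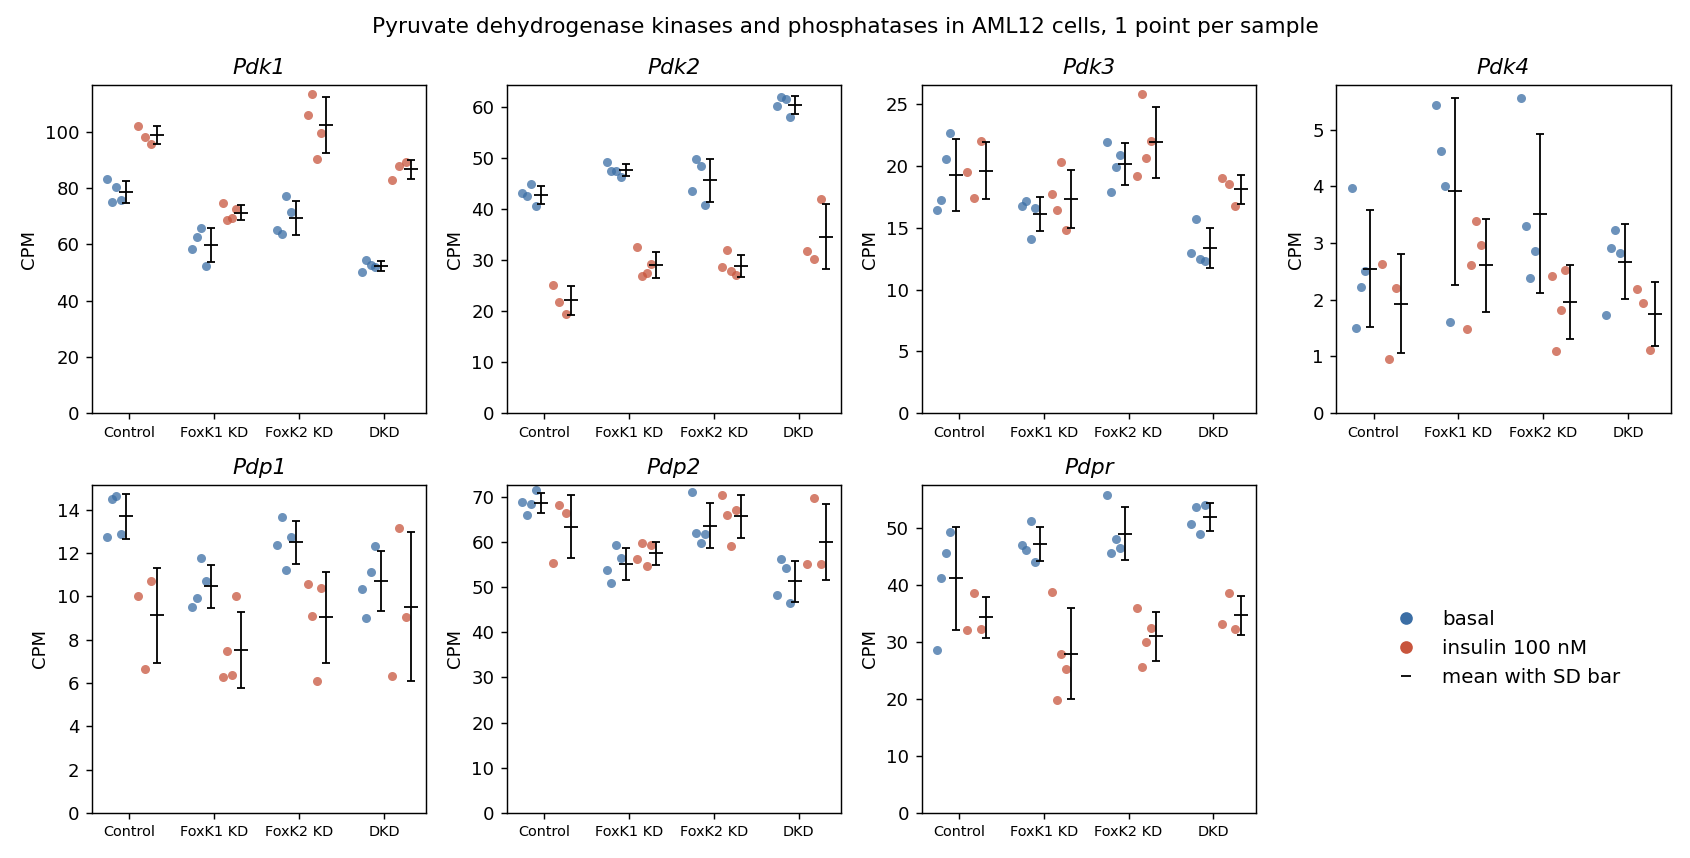
CPM of the 7 genes (y axis, linear and starting at 0) in the 4 siRNA groups (x axis), basal in blue and insulin in red, 1 point per sample, with the group mean and SD beside the points. Pdk1 points rise with insulin in each siRNA group while Pdk2 points fall, and basal DKD cells hold the lowest Pdk1 and the highest Pdk2.

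Pdk1 (ENSMUSG00000006494.11, chromosome 2, 71873224 to 71903858, plus strand, GRCm38) was lower in basal FoxK1 KD and DKD cells and rose with insulin in every siRNA group. The basal Control samples had 83.4, 75.01, 80.6 and 75.9 CPM. The basal FoxK1 KD samples had 58.4, 62.7, 65.9 and 52.2 CPM, the FoxK2 KD samples 65.1, 63.8, 77.2 and 71.7, and the DKD samples 50.2, 54.4, 52.8 and 52.1. No FoxK1 KD or DKD sample reached the lowest Control sample, whereas FoxK2 KD samples overlapped Control. The log2 fold change was -0.40 (SE 0.08, adjusted p = 0.00267) in FoxK1 KD and -0.59 (SE 0.09, adjusted p = 9.85e-06) in DKD cells. In FoxK2 KD cells it was -0.18 (95% confidence interval -0.34 to -0.01, adjusted p = 0.405), which did not pass the threshold of an adjusted p under 0.25.

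After insulin, Pdk1 was at 102, 98.3 and 95.9 CPM in Control samples and at 74.6, 68.7, 69.4 and 72.7 in FoxK1 KD samples, again without overlap. The FoxK2 KD samples had 106, 114, 90.4 and 99.8 CPM and spanned the Control range. The DKD samples had 82.9, 87.8 and 89.3 CPM, all under the Control samples by a smaller margin than at basal. FoxK1 KD differed from Control by -0.47 log2 (SE 0.09, adjusted p = 0.00162). DKD differed by -0.19 (95% confidence interval -0.38 to 0.0002, adjusted p = 0.392), which did not pass. The insulin effect itself was 0.33 log2 (SE 0.09, adjusted p = 0.00465) in Control, 0.26 (0.09, 0.023) in FoxK1 KD, 0.56 (0.08, 2.49e-06) in FoxK2 KD and 0.73 (0.09, 6.22e-07) in DKD cells, and basal and insulin samples did not overlap in any of the 4. The share of all tested genes without overlap was not counted in any comparison. Lack of overlap, here and for the genes below, thus does not set them apart from other genes.

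Pdk2 (ENSMUSG00000038967.13, chromosome 11, 95026258 to 95041354, minus strand) moved the other way. The basal Control samples had 43.1, 42.5, 44.9 and 40.7 CPM, and the DKD samples 60.3, 62.0, 61.5 and 58.0, the highest of any group. The FoxK1 KD samples had 49.3, 47.5, 47.5 and 46.3 CPM, above each Control sample by a margin that did not pass the test. The FoxK2 KD samples had 43.5, 49.9, 48.4 and 40.9 CPM and overlapped Control. DKD exceeded Control by 0.50 log2 (SE 0.09, adjusted p = 0.000285). For FoxK1 KD the excess was 0.16 (95% confidence interval -0.03 to 0.35, adjusted p = 0.319) and for FoxK2 KD 0.10 (-0.09 to 0.29, adjusted p = 0.755).

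Insulin lowered Pdk2 in each siRNA group. It was at 25.0, 21.8 and 19.5 CPM in insulin-treated Control samples, the lowest of any group. The FoxK1 KD samples had 32.5, 26.9, 27.5 and 29.3 CPM, the FoxK2 KD samples 28.7, 31.9, 27.9 and 27.1, and the DKD samples 31.7, 30.2 and 42.0. No knockdown sample was as low as the highest Control sample. The insulin effect was -0.94 log2 (SE 0.12, adjusted p = 1.68e-07) in Control, -0.71 (0.11, 3.71e-06) in FoxK1 KD, -0.66 (0.10, 5.78e-06) in FoxK2 KD and -0.78 (0.11, 2.16e-06) in DKD cells. Against insulin-treated Control, Pdk2 was higher by 0.66 log2 (SE 0.13, adjusted p = 0.00295) in DKD and by 0.39 (SE 0.13, adjusted p = 0.0808) in FoxK1 KD cells. The latter call was lost without insulin-treated Control replicate 3, at 0.29 log2 and an adjusted p of 0.291. The FoxK2 KD excess of 0.38 log2 (95% confidence interval 0.13 to 0.63) did not pass, with adjusted p = 0.531. Pdk2 overlaps an antisense gene, Gm11513, that held 12 counts over the 30 samples and shares no exon bases with it.

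The fold changes of the DKD group at basal rose with the GC content of a gene across all tested genes (Spearman rho = 0.466 over 11346 genes, which are not independent). Such a relation was not particular to DKD cells: rho was -0.217 in basal FoxK1 KD and -0.111 in basal FoxK2 KD cells. For insulin effects rho was 0.076 in Control, 0.326 in FoxK1 KD, 0.241 in FoxK2 KD and -0.211 in DKD cells. Pdk2 had the highest exon GC content of the 7 genes (56.9%) and Pdp1 the lowest (39.2%). With an offset for GC content and length, the Pdk2 difference in DKD at basal was 0.32 log2 (adjusted p = 0.017) and that of Pdk1, with 46.4% GC, was -0.54 (adjusted p = 5.29e-05). With the same offset the Pdk2 difference in basal FoxK1 KD cells was 0.26 log2 and passed (adjusted p = 0.086), while Pdk3 there no longer passed (adjusted p = 0.276).

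**Figure D2:**
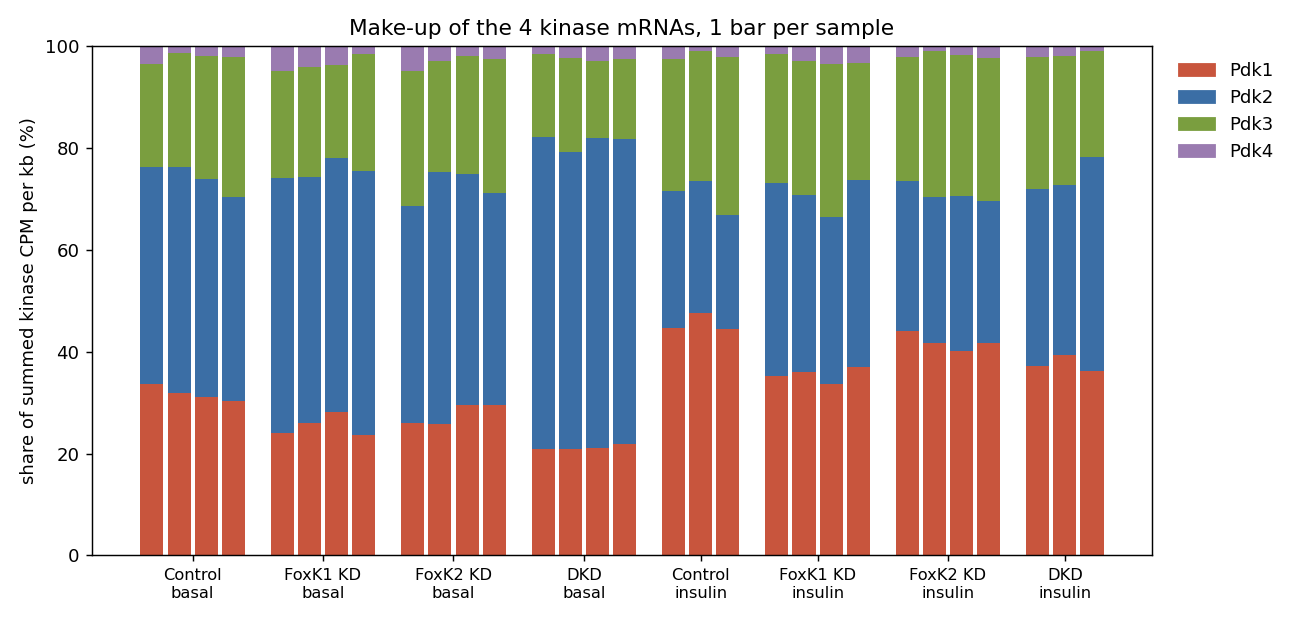
Share of the summed kinase CPM per kb held by each kinase (y axis, %), 1 stacked bar per sample, grouped by siRNA and insulin (x axis). The Pdk2 share is largest in the 4 basal DKD samples (58.4% to 61.4%) and smallest in the 3 insulin-treated Control samples (22.2% to 26.9%).

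At basal the sum of the 4 kinases differed between groups by little more than its spread, while its make-up shifted, most of all in DKD cells, where the Pdk2 share was larger than in Control and the Pdk1 and Pdk3 shares were smaller. The sum was 31.9 ± 1.2 CPM per kb (SD, n = 4) in basal Control, 30.2 ± 1.4 in FoxK1 KD, 32.2 ± 1.1 in FoxK2 KD and 31.8 ± 1.3 in DKD cells. After insulin it was 27.9 ± 1.4 (n = 3), 25.9 ± 1.2 (n = 4), 31.4 ± 2.6 (n = 4) and 29.7 ± 1.7 (n = 3) in the same order. Within that sum the basal Pdk1 share was 31.7% ± 1.4 in Control, 25.5% ± 2.0 in FoxK1 KD, 27.7% ± 2.2 in FoxK2 KD and 21.2% ± 0.49 in DKD cells, and insulin brought it to 45.6% ± 1.7, 35.5% ± 1.4, 41.9% ± 1.7 and 37.6% ± 1.6. The Pdk2 share was 42.5% ± 1.8, 49.98% ± 1.4, 44.8% ± 3.5 and 60.1% ± 1.3 at basal and 25.0% ± 2.5, 35.5% ± 2.2, 29.1% ± 1.1 and 36.7% ± 4.6 after insulin. The basal Pdk3 share was 23.5% ± 3.1 in Control, 20.9% ± 1.9 in FoxK1 KD, 24.4% ± 2.3 in FoxK2 KD and 16.4% ± 1.4 in DKD cells. Per kilobase, Pdk2 stood above Pdk1 in basal Control cells and under it after insulin, and both held nearly equal shares in insulin-treated FoxK1 KD and DKD cells. That order rests on the exon lengths used (7779 bases for Pdk1 and 3163 for Pdk2). As shares of the kinase counts with no length scaling, Pdk1 and Pdk2 held 54.9% and 29.9% in basal Control and 69.4% and 15.5% in insulin-treated Control. On that scale they held 40.6% and 46.9% in basal DKD, 61.4% and 24.4% in insulin-treated DKD and 59.3% and 24.1% in insulin-treated FoxK1 KD cells, so the shares shifted in the same directions but the order in Control cells was not exchanged. The shares are descriptions of mRNA and were not tested. The 2 catalytic phosphatases together stood at 15.1 ± 0.28 CPM per kb in basal Control, 12 ± 0.83 in FoxK1 KD, 13.9 ± 0.92 in FoxK2 KD and 11.4 ± 0.63 in DKD cells (SD, n = 4 each). After insulin their sums were 13.2 ± 1.1, 11.8 ± 0.77, 13.5 ± 1.3 and 12.6 ± 2.2.

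Pdk3 (ENSMUSG00000035232.8, chromosome X, 93764607 to 93832201, minus strand), reported as the kinase least restrained by pyruvate, held 16.4% to 27.5% of the kinase sum as group means. Its basal samples had 16.4, 17.3, 20.6 and 22.7 CPM in Control and 12.9, 15.7, 12.5 and 12.3 in DKD cells, without overlap. The difference was -0.54 log2 (SE 0.14, adjusted p = 0.00529). In FoxK1 KD cells (14.1 to 17.2 CPM, overlapping Control) it was -0.27 (SE 0.13, adjusted p = 0.199). That call was lost without any 1 of Control replicates 3 and 4 or FoxK1 KD replicates 2, 3 and 4, with adjusted p of 0.252 to 0.462. In FoxK2 KD cells Pdk3 was 17.9 to 21.9 CPM and did not pass (0.05 log2, adjusted p = 0.945). Insulin raised Pdk3 in DKD cells to 19.0, 18.6 and 16.8 CPM (0.43 log2, SE 0.15, adjusted p = 0.0489). In Control cells its insulin effect was 0.01 log2 (95% confidence interval -0.27 to 0.30, adjusted p = 0.997). The difference between these effects, 0.42 log2, did not pass (adjusted p = 0.349), and reached an adjusted p of 0.215 without basal Control replicate 1.

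Pdk4 (ENSMUSG00000019577.6, chromosome 6, 5483351 to 5496309, minus strand) had group means of 1.75 to 3.91 CPM and overlapping samples in every comparison. It was at 3.97, 1.5, 2.23 and 2.5 CPM in basal Control and at 5.43, 4.62, 3.999 and 1.61 in FoxK1 KD cells, a difference of 0.64 log2 with a wide error (SE 0.33, adjusted p = 0.240). That call was lost without any 1 of Control replicates 2, 3 and 4 or FoxK1 KD replicates 1, 2 and 3 (adjusted p 0.283 to 0.540), and in limma-voom (adjusted p = 0.322). Insulin effects on Pdk4 were negative in all 4 siRNA groups, at -0.35 log2 (adjusted p = 0.599) in Control, -0.60 (0.223) in FoxK1 KD, -0.77 (0.118) in FoxK2 KD and -0.62 (0.383) in DKD cells. Of these, the FoxK1 KD call was lost without any 1 of basal replicates 1, 2 and 3 or insulin replicates 1 and 2 (adjusted p 0.275 to 0.519), and the FoxK2 KD call without basal replicate 1 (0.349) or insulin replicate 2 (0.292). At these counts changes of this size in Pdk4 were not firmly resolved.

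Of the catalytic phosphatases, Pdp2 (ENSMUSG00000048371.8, chromosome 8, 104591451 to 104599026, plus strand), the form known to respond to insulin in fat and liver, was lower in basal FoxK1 KD and DKD cells. The basal Control samples had 68.9, 66.0, 68.5 and 71.4 CPM. The FoxK1 KD samples had 53.9, 50.8, 59.3 and 56.5 CPM and the DKD samples 48.2, 56.1, 54.1 and 46.5, all under the Control samples. The log2 fold changes were -0.32 (SE 0.09, adjusted p = 0.0252) and -0.43 (SE 0.09, adjusted p = 0.00102). FoxK2 KD samples (71.0, 61.9, 59.9 and 61.8 CPM) overlapped Control, at -0.12 log2 (95% confidence interval -0.30 to 0.06, adjusted p = 0.658). After insulin the knockdown groups overlapped Control (55.4, 68.3 and 66.3 CPM), and the differences lay between -0.14 and 0.06 log2 with adjusted p of 0.533 to 0.986.

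The insulin effect on Pdp2 was -0.12 log2 (95% confidence interval -0.32 to 0.08, adjusted p = 0.383) in Control and 0.22 (SE 0.10, adjusted p = 0.142) in DKD cells, whose insulin samples had 55.1, 69.7 and 55.0 CPM and overlapped the basal ones. The DKD call rested on insulin replicate 2, the highest sample: without it the effect was 0.11 log2 (adjusted p = 0.584), and it was also lost without basal DKD replicate 1 (adjusted p = 0.302) or 4 (0.310).

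Pdp1 (ENSMUSG00000049225.14, chromosome 4, 11958184 to 11966452, minus strand), the calcium-stimulated form, was at 12.8, 14.5, 14.6 and 12.9 CPM in basal Control samples. The FoxK1 KD samples had 9.50, 9.90, 11.8 and 10.7 CPM and the DKD samples 10.3, 9.02, 11.1 and 12.3, all under Control. The differences were -0.38 log2 (SE 0.17, adjusted p = 0.174) and -0.35 (SE 0.18, adjusted p = 0.164). The FoxK1 KD call was lost without Control replicate 3 or FoxK1 KD replicate 1 or 2 (adjusted p 0.263 to 0.313). The DKD call was lost without Control replicate 2 or 3 or DKD replicate 1 or 2 (adjusted p 0.260 to 0.332), and with the GC and length offset, where the difference was -0.11 log2 (adjusted p = 0.731). Insulin brought Pdp1 to 10.02, 6.64 and 10.7 CPM in Control samples, all under the basal ones. Its effect was -0.58 log2 (SE 0.20, adjusted p = 0.0302) in Control, -0.47 (SE 0.21, adjusted p = 0.0834) in FoxK1 KD and -0.45 (SE 0.18, adjusted p = 0.0595) in FoxK2 KD cells. In DKD cells the insulin samples spread from 6.34 to 13.2 CPM and the effect of -0.23 (adjusted p = 0.511) did not pass, while without insulin replicate 2, the highest, it was -0.47 (adjusted p = 0.194).

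Pdpr (ENSMUSG00000033624.10, chromosome 8, 111094630 to 111137074, plus strand) fell with insulin. Its basal samples had 47.1, 46.2, 51.3 and 44.1 CPM in FoxK1 KD, 55.9, 45.7, 48.2 and 46.6 in FoxK2 KD and 50.8, 53.8, 49.0 and 54.2 in DKD cells. Insulin brought them to 38.8, 19.8, 27.9 and 25.2, to 35.9, 25.6, 30.03 and 32.4, and to 33.2, 38.7 and 32.3 CPM. No insulin sample of these 3 groups reached its basal samples, and the effects were -0.76 log2 (SE 0.15, adjusted p = 0.000192), -0.65 (0.14, 0.000523) and -0.60 (0.15, 0.00533). In Control cells basal replicate 1, the library that stood apart, had 28.6 CPM against 41.3, 45.6 and 49.3 in the other samples, so that basal and insulin samples (32.2, 38.6 and 32.4 CPM) overlapped. There the insulin effect was -0.28 log2 (SE 0.15, adjusted p = 0.183), and -0.41 with an adjusted p of 0.0241 without that replicate. The Control call was lost without basal replicate 3 or 4 or insulin replicate 1 or 3 (adjusted p 0.317 to 0.467).

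Pdpr was also higher in basal DKD than in Control cells, by 0.32 log2 (SE 0.13, adjusted p = 0.0814), a call that rested on the same Control library and was 0.19 (adjusted p = 0.254) without it. Basal FoxK1 KD and FoxK2 KD cells differed from Control by 0.18 and 0.23 log2 and did not pass (adjusted p 0.423 and 0.524), though FoxK1 KD reached 0.29 log2 and an adjusted p of 0.191 without Control replicate 4. After insulin, no knockdown group differed from Control in Pdpr at the threshold (-0.30, -0.14 and 0.00 log2, adjusted p 0.363, 0.972 and 0.997), though FoxK1 KD reached an adjusted p of 0.0959 without its replicate 1, the highest of that group. Exons of Pdpr share bases with 9430091E24Rik on the other strand, which held 418 counts over the 30 samples. Whether the counting used strand is not given in the sources used here, so reads of the 2 genes cannot be told apart there.

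**Figure D3:**
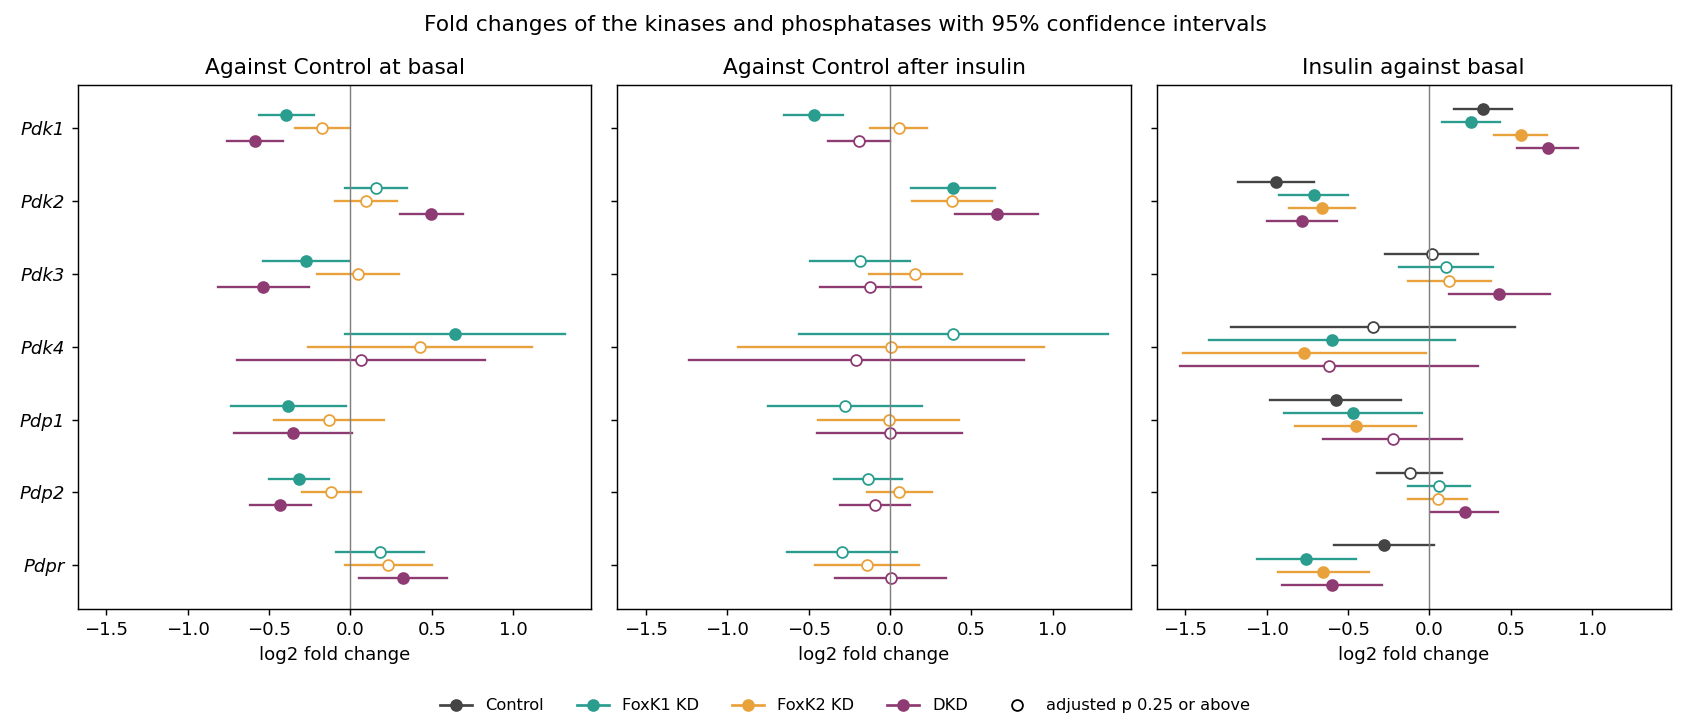
Log2 fold change (x axis) of each gene (y axis) for the knockdowns against Control at basal (left) and after insulin (middle) and for insulin against basal in each siRNA group (right). Lines are 95% confidence intervals and filled points passed an adjusted p under 0.25: the basal DKD points of Pdk1, Pdk3, Pdp1 and Pdp2 lie left of 0 and those of Pdk2 and Pdpr right of it.

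Counted over the 7 genes, basal DKD cells gave the most calls against Control. There 6 genes passed, 4 lower (Pdk1, Pdk3, Pdp1 and Pdp2) and 2 higher (Pdk2 and Pdpr), where 43.6% of all tested genes passed. In basal FoxK1 KD cells 5 passed, 4 lower (Pdk1, Pdk3, Pdp1 and Pdp2) and Pdk4 higher, where 26.6% of all genes passed. In basal FoxK2 KD cells 0 passed, where 3.59% of all genes did. DESeq2 and limma-voom also called 0 there, and 1 gene, Pdk1, had an unadjusted p under 0.05. These 3 comparisons share the Control samples, as do the comparisons after insulin. Among the tested genes, 52 were lower in every basal Control, FoxK1 KD and FoxK2 KD sample than in all 18 others, and 83 were higher. For these genes basal DKD samples thus lay with the insulin-treated samples. Of the 7 members, 0 were among them. What set these samples apart was not tested. In basal DKD calls and DKD differences in insulin effect it cannot be told apart from the knockdown.

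After insulin, 2 genes passed in FoxK1 KD cells (Pdk1 lower and Pdk2 higher), where 15.1% of all genes passed, and 1 in DKD cells (Pdk2 higher), where 6.66% did. In FoxK2 KD cells 0 genes passed by edgeR, DESeq2 or limma-voom, where 0.238% of all genes passed, and Pdk2 alone had an unadjusted p under 0.05. The insulin effect passed for 4 genes in Control cells (1 higher, 3 lower; 46.6% of all genes), for 5 in FoxK1 KD cells (1 higher, 4 lower; 54% of all genes), for 5 in FoxK2 KD cells (1 higher, 4 lower; 49.5%) and for 5 in DKD cells (3 higher, 2 lower; 37.3%). Pdk1 higher and Pdk2 and Pdpr lower were shared by all 4 siRNA groups, with the reservation given for Pdpr in Control cells. Since 37.3% to 54% of all genes passed in these comparisons, the number of members that passed does not set them apart from other genes.

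The difference in insulin effect between a knockdown and Control was tested for each gene. For FoxK1 KD minus Control 0 genes passed by edgeR, DESeq2 or limma-voom (3.4% of all genes passed), and Pdpr alone had an unadjusted p under 0.05. That gene, at -0.48 log2 (adjusted p = 0.331), passed without basal Control replicate 4 (adjusted p = 0.193) or FoxK1 KD insulin replicate 1 (0.198). For FoxK2 KD minus Control 0 genes passed by any of the 3 tools, and 0 of the 7 had an unadjusted p under 0.05 (0% of all genes passed, 625 of them with an unadjusted p under 0.05). For DKD minus Control 2 genes passed, Pdk1 at 0.40 log2 (SE 0.13, adjusted p = 0.107) and Pdp2 at 0.34 (SE 0.14, adjusted p = 0.230), where 9.88% of all genes passed. The Pdk1 call held without each replicate in turn (0.37 to 0.43 log2, adjusted p 0.0867 to 0.241) but had an adjusted p of 0.269 when genes with as little as 1 count in any sample were tested as well. The Pdp2 call was lost without any 1 of basal Control replicates 3 and 4, basal DKD replicates 1 and 4, insulin-treated Control replicates 1 and 2 and insulin-treated DKD replicate 2 (adjusted p 0.25 to 0.566). For Pdk2 the difference was 0.16 log2 (95% confidence interval -0.16 to 0.48, adjusted p = 0.705).

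The genes around the switch were counted from lists set with earlier results of these data known. Of the 5 subunits of the complex itself, 4 were lower and 0 higher in basal DKD cells, where 22.4% of all tested genes were lower and 21.2% higher. They were at -0.34 log2 for Pdha1 (the E1 alpha subunit that the kinases phosphorylate), -0.53 for Pdhb (E1 beta), -0.26 for Dlat (E2) and -0.54 for Dld (E3), with adjusted p of 0.0082, 0.00194, 0.100 and 5.5e-05. The E3-binding subunit Pdhx did not pass (0.10 log2, adjusted p = 0.513). The median over the list was -0.34, against -0.001 over all tested genes. In basal FoxK1 KD cells 2 of 5 were lower (Pdhb at -0.26 log2 and Pdhx at -0.23), where 14.9% of all genes were. In FoxK2 KD cells 0 of 5 passed, where 3.59% of all genes did. Insulin lowered Pdha1 (-0.39 log2, adjusted p = 0.00412) and Pdhb (-0.28, 0.113) in Control cells and raised Pdhx (0.27, 0.062). In DKD cells it raised Pdhb (0.35 log2, adjusted p = 0.0697) and Dld (0.22, 0.122) and lowered Pdha1 (-0.21, 0.172), and the difference from Control passed for Pdhb (0.63 log2, adjusted p = 0.0768).

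Of 9 tested genes that supply pyruvate or use it elsewhere, 5 rose with insulin in Control cells and 0 fell, where 22.1% of all tested genes rose and 24.5% fell. They were Ldha (lactate dehydrogenase A, 0.68 log2, adjusted p = 1.66e-05), Pkm (pyruvate kinase, 0.37, adjusted p = 0.0192), the alanine aminotransferases Gpt and Gpt2 (0.36 and 0.49, adjusted p = 0.0889 and 0.00508), and Pklr, named after its value was seen (0.26, 0.0894). In basal FoxK1 KD cells 5 of the 9 were lower, where 14.9% of all genes were, among them Ldha (-0.67 log2, adjusted p = 7.93e-05) and Pkm (-0.56, 0.00149), the genes that move pyruvate to lactate and make it. In basal DKD cells Ldha was lower by a smaller amount (-0.30 log2, adjusted p = 0.0353), as were Mpc2, a subunit of the mitochondrial pyruvate carrier (-0.39, 0.0231), and Slc16a1, a lactate transporter (-0.42, 0.00576), while Pcx (pyruvate carboxylase, 0.38, 0.0655) and Gpt2 (0.41, 0.0166) were higher.

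**Figure D4:**
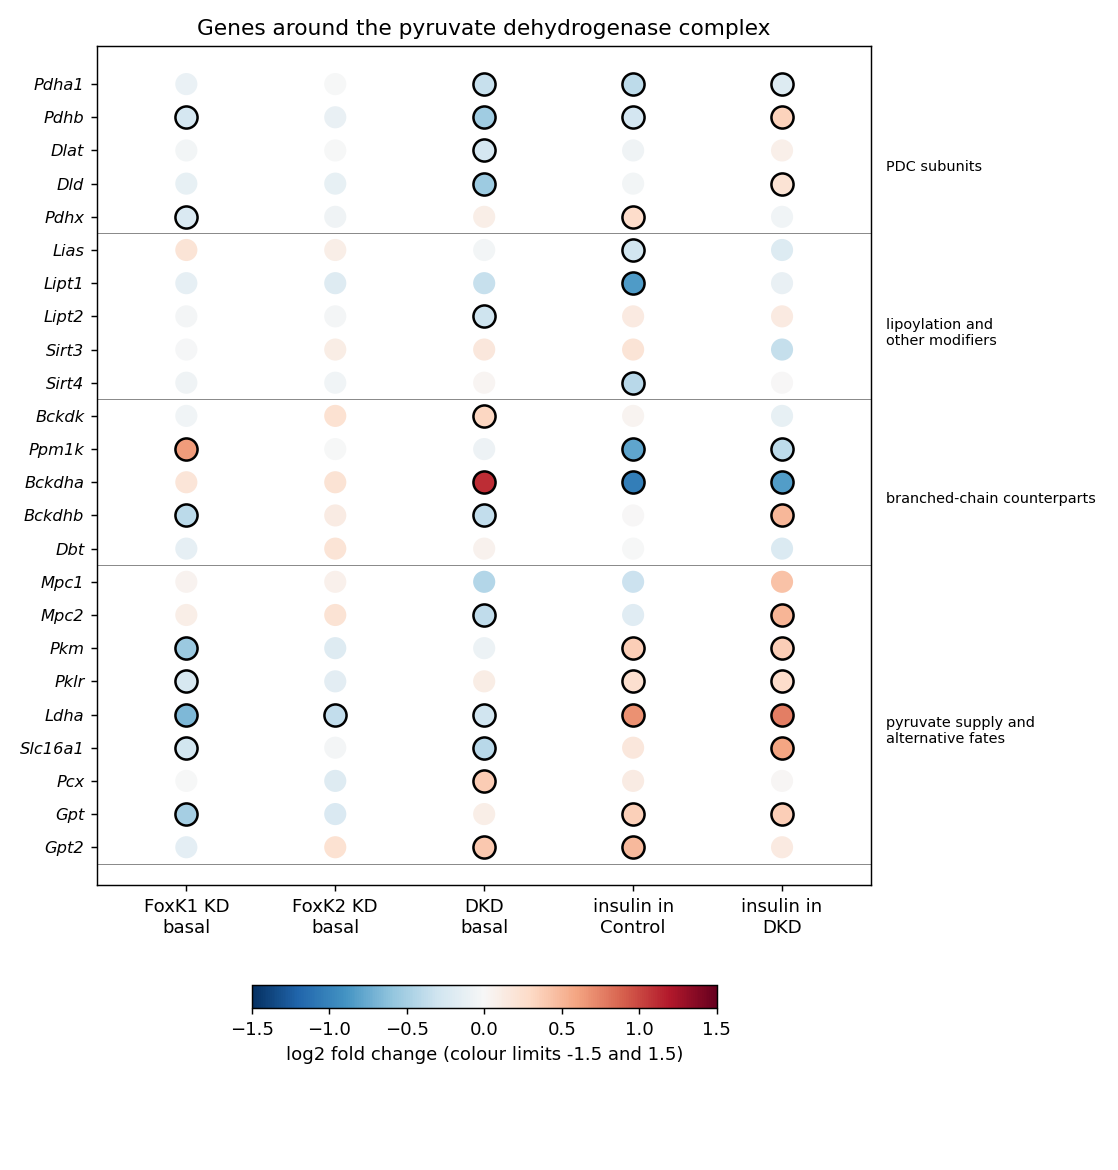
Log2 fold change (colour, red higher and blue lower) of genes around the complex (y axis, grouped by list) in 5 comparisons (x axis). Ringed points passed an adjusted p under 0.25: 4 of the 5 complex subunits are ringed blue in basal DKD cells, and 5 of 9 pyruvate supply genes are ringed red for insulin in Control cells.

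Of the enzymes that attach lipoate to the complex and the mitochondrial sirtuins, 1 of 5 was lower in basal DKD cells (Lipt2, -0.32 log2, adjusted p = 0.246). There 22.4% of all tested genes were lower. In basal FoxK1 KD and FoxK2 KD cells 0 passed, where 26.6% and 3.59% of all genes did. With insulin 3 of 5 fell in Control cells, where 24.5% of all genes fell. These were Lias (-0.29 log2), Lipt1 (-0.85) and Sirt4 (-0.42), with adjusted p of 0.202, 0.0106 and 0.182. Of 5 tested genes of the branched-chain ketoacid dehydrogenase, a sister complex with its own kinase and phosphatase, 2 were higher and 1 lower in basal DKD cells. There 43.6% of all genes passed. For basal FoxK1 KD cells 1 was higher and 1 lower, where 26.6% passed. With insulin in Control cells 2 fell and 0 rose, where 24.5% of all genes fell. Counts this small do not set the complex apart from other genes. In basal DKD cells its E1 alpha subunit Bckdha (1.10 log2, adjusted p = 0.000355) and kinase Bckdk (0.32, 0.0293) were higher and its E1 beta subunit Bckdhb was lower (-0.37, 0.117). In basal FoxK1 KD cells its phosphatase Ppm1k was higher (0.63 log2, adjusted p = 0.0108) and Bckdhb was lower (-0.40, 0.122). With insulin, Ppm1k (-0.79, 0.00443) and Bckdha (-1.04, 0.0111) fell in Control cells.

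Genes of the factors known to act on the kinase genes were also read out. Of 10 genes known as targets of hypoxia-inducible factor, the group to which Pdk1 belongs, 7 rose and 1 fell with insulin in Control cells. There 22.1% of all tested genes rose and 24.5% fell, and the median was 0.55 log2 in the list against -0.01 over all. Hk2 (hexokinase 2, 1.74 log2, adjusted p = 6.63e-13) and Slc2a1 (the glucose transporter GLUT1, 0.89, 5.46e-07) were among those that rose. In basal FoxK1 KD cells 7 of the 10 were lower, where 14.9% of all genes were. In basal DKD cells 4 were lower and 1 higher, a share near the 43.6% of all genes that passed. All 5 tested FoxO-type fasting genes fell with insulin in Control cells (median -1.25 log2), including Irs2 (insulin receptor substrate 2, -1.47 log2, adjusted p = 1.02e-11). In basal DKD cells 1 rose and 1 fell. Of 6 tested PPAR-type targets 5 fell and 1 rose with insulin in Control cells, and 1 rose and 2 fell in basal DKD cells. Of 12 factor genes, Hif1a was lower in basal DKD cells (-0.39 log2, adjusted p = 0.00413) and rose with insulin there (0.45, 0.00272), while Epas1 rose with insulin in Control cells (0.79, 6.19e-06). In these 12 genes 2 rose and 2 fell in basal DKD cells, and 2 rose and 5 fell with insulin in Control cells. For these counts and those of the FoxO- and PPAR-type genes, the shares of all tested genes were 21.2% higher and 22.4% lower in basal DKD cells, and 22.1% higher and 24.5% lower with insulin in Control cells.

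Across the 30 samples the log2 CPM of Pdk1 ran against that of Pdk2 (Pearson r = -0.772) and with that of Pdk3 (0.684) and Pdp2 (0.607), while Pdk2 ran with Pdpr (0.723). The samples fall into 8 groups and share depth, so these values are descriptions. Among all tested genes with enough counts, the ones most like Pdk1 were Scd1 (r = 0.949), Scd2 (0.906) and Cyp51 (0.903). Those most like Pdk2 were Ctsf (0.960), Gprc5c (0.946) and Calcoco1 (0.943). For Pdk3 they were Phf6 (0.875), Otud6b (0.866) and Purb (0.852), for Pdpr Dlg1 (0.879), Usp54 (0.859) and Wipi1 (0.852), for Pdp2 Abcc2 (0.819), Lgr4 (0.745) and Cpsf7 (0.738), and for Pdp1 Gfra1 (0.777), Fam149a (0.763) and Nedd9 (0.752). Pdk4 was left out for its low counts.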

How the data were processed

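RNA-seq was analysed in 30 samples of AML12 cells in 8 groups taken from the sample labels. The deposited files hold raw read counts by Ensembl gene, which the authors did not normalize. The submitters' processing notes name CASAVA 1.8, STAR 2.4.2a, featureCounts and GRCm38.p4, and the strand setting is not given in the sources used here. Of 49089 identifiers, 48435 were found in GENCODE M21 (GRCm38), 41427 of them with the same version, and symbols, coordinates, exon length and GC content came from it. Totals were 2141460 to 5668270 counts per sample, and each of 42 replicate pairs differed by more than sampling noise (chi-square at least 1.7 times its degrees of freedom).

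Genes passing edgeR's filterByExpr (11368) were scaled by TMM, and the 8 groups shared 1 quasi-likelihood fit and F-test in edgeR 4.0.16 under R 4.3.3, followed by Benjamini-Hochberg adjustment over all 11368 genes and an adjusted p below 0.25 as the threshold, which is the study's false discovery rate, while for insulin responses the study also asked for a fold change above 1.5, tried here as an alternative. The replicate number was not a block: same-numbered samples did not deviate together (mean correlation -0.013 over 99 pairs, 0.004 over 294 other pairs), and no source says that a number marks a shared batch. Standard errors were the absolute log2 fold change over the square root of F. The code was tested on simulated data.

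Alternatives were DESeq2 1.42.0, limma-voom (limma 3.58.1), RLE factors, keeping genes with 10 or more counts in all samples, keeping genes with 1 or more in any, only the groups compared, a replicate block, a GC content and length offset, an adjusted p below 0.05, a fold change above 1.5, and leaving out each sample. The named genes were the 7 members in every comparison, the genes of fixed lists, and for each member with enough counts the 3 tested genes with the highest Pearson r over the 30 samples. Members and lists were chosen with earlier results of these data known.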

Additional observations from a re-analysis of the deposited data

Results flagged for a closer look

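The insulin effects of DKD and Control cells differed by the test of the difference itself for 2 of the 7 genes. For Pdk1 the effect was larger in DKD by 0.40 log2 (95% confidence interval 0.14 to 0.65, adjusted p = 0.107). Basal means were 52.4 ± 1.7 CPM in DKD and 78.7 ± 4.0 in Control cells (SD, n = 4 each), and insulin means were 86.7 ± 3.3 and 98.8 ± 3.2 (n = 3 each). For Pdp2 the difference was 0.34 log2 (95% confidence interval 0.05 to 0.63, adjusted p = 0.230), and it was 0.22 (adjusted p = 0.566) without insulin-treated DKD replicate 2. Differences of this kind were related to GC content across all genes (Spearman rho = -0.307 over 11346 genes, a description). With the offset for GC content and length, both still passed, Pdk1 at 0.38 log2 (adjusted p = 0.139) and Pdp2 at 0.33 (adjusted p = 0.235). In the 42 sets of 4 samples examined, 0 had a sample set apart from the other 3 by Dixon's criterion. Insulin-treated Control and DKD cells, with n = 3 each, were not examined in this way, so it says nothing on their samples.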

How the results depend on the processing

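Of 91 gene and comparison pairs, 35 passed, and 23 of these passed in each alternative fit and without each replicate. The stricter limits on adjusted p and fold change were left out of that count. Of the 35, 14 no longer passed at an adjusted p below 0.05, and 22 with a fold change above 1.5. Of the 56 that did not pass, 50 passed in no alternative, and 0 values changed direction while called. The counts of the 7 genes that moved by over 1.5 times were these. In basal FoxK1 KD cells the 5 became 2 at an adjusted p below 0.05, 1 with a fold change above 1.5, 3 in DESeq2, 2 with genes of 1 count in any sample, and 2 with only the groups compared. In insulin-treated FoxK1 KD cells the 2 became 1 at an adjusted p below 0.05, 0 with the fold limit and 1 with genes of 1 count. In basal DKD cells the 6 became 1 with the fold limit. For the insulin effect the fold limit left 1 gene in Control, 3 in FoxK1 KD, 3 in FoxK2 KD and 3 in DKD cells, and an adjusted p below 0.05 left 3 in FoxK1 KD and 3 in FoxK2 KD cells. For the difference of DKD from Control in insulin effect the 2 became 0 at an adjusted p below 0.05, 0 with the fold limit, 0 with genes of 1 count, and 1 with only the groups compared. A stricter limit lowers such counts by construction, and other causes were not tested. The fit with a replicate block also left 1 gene there, Pdk1. Under the block Pdk4 in basal FoxK1 KD cells had an adjusted p of 0.267. No source says that the numbers pair the samples, and same-numbered samples did not deviate together.

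Without 1 replicate at a time the counts ranged from 2 to 5 in basal FoxK1 KD, 0 to 0 in basal FoxK2 KD and 5 to 6 in basal DKD cells. After insulin they ranged from 1 to 3, 0 to 0 and 1 to 1. The insulin effect gave 3 to 4 genes in Control and 4 to 5 in FoxK1 KD, FoxK2 KD and DKD cells, and the differences gave 0 to 1, 0 to 0 and 1 to 3. Over all genes, only the groups compared moved the calls from 3028 to 993 in basal FoxK1 KD, 408 to 5 in basal FoxK2 KD, 27 to 9 and 757 to 352 in insulin-treated FoxK2 KD and DKD cells, 5303 to 3427 for insulin in Control, and 386 to 0 and 1123 to 375 for the differences of FoxK1 KD and DKD. The GC offset moved basal FoxK2 KD to 680 and the FoxK1 KD difference to 222, the block moved insulin-treated FoxK2 KD to 15, and genes of 1 count moved insulin-treated DKD to 422 and the FoxK2 KD difference from 0 to 54. Over the 13 comparisons calls ranged from 0 to 6143, from 0 to 3588 at an adjusted p below 0.05 and from 0 to 1463 with the fold limit. Depth limits Pdk4 (3 to 24 counts per sample), which a minimum of 10 counts in every sample removed.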
